A study of Mus musculus with 24 samples.

Results

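The 10 genes that encode cardiac transcription factors were followed in the left ventricle of mice under pressure overload: the T-box factors Tbx20 and Tbx5, the GATA zinc-finger factors Gata4 and Gata6, the MADS-box factors Mef2a, Mef2c, Mef2d and Srf, the homeobox factor Nkx2-5 and the basic helix-loop-helix factor Hand2. They were taken by gene symbol from the table of read counts, which holds 24015 genes, and all 10 were found and passed the filter on low counts, as did 13816 genes in all. Left ventricles were collected 2, 4, 7 and 21 days after transverse aortic constriction (TAC), which narrows the aorta and loads the ventricle with pressure, or after a sham operation on the same schedule. The 8 groups were TAC at each of the 4 days and sham at each of the 4 days, with 3 libraries each and 24 in all. The labels give no genotype, strain, age or sex for any group, and no allele or drug is named in them. They also do not say whether the 3 libraries of a group came from separate animals; if they did not, the spread behind each p-value is that of these libraries alone and may be technical.

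These factors build the heart in the embryo and stay on in the adult cardiomyocyte, where they bind each other and sit together on the regulatory DNA of contractile and natriuretic peptide genes. Much of their control is known to act on the protein rather than on its RNA: kinases phosphorylate GATA4, class II histone deacetylases hold MEF2 back until they leave the nucleus, and actin dynamics release the cofactors of SRF. A table of RNA levels sees only the amount of message.

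Counted reads per library numbered 10.7 to 17.6 M (M, 1000000 reads). The 10 genes together took 0.139% to 0.160% of a library, with no gene under 453 reads in any library. Levels below are CPM (counts per 1000000 reads, scaled by TMM, the trimmed mean of M-values), and effects are log2 ratios of TAC to sham ± the standard error (SE), called log2 fold changes, with p-values from edgeR's quasi-likelihood test adjusted by Benjamini-Hochberg over all genes tested and a threshold of 0.05. The defining genes of ventricular muscle were abundant in every library, with a summed level of 10 cardiomyocyte markers between 97033 and 146036 CPM in TAC libraries and between 130479 and 144803 CPM in sham libraries. Myl7, the atrial myosin light chain, exceeded 30 CPM in 4 libraries, which were TAC day 7 replicate 1 (60.6 CPM), sham day 2 replicates 2 and 3 (38.5 and 95.1 CPM) and sham day 21 replicate 2 (70.2 CPM). Esr1, the estrogen receptor, had 2106 CPM in TAC day 2 replicate 1 and at most 3.39 CPM in any other TAC library.

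All 10 factors were well expressed, and their order was read from the deposited RPKM (reads per kilobase of transcript and 1000000 reads), since levels of different genes can only be compared per length. In TAC libraries the median RPKM was 72.3 for Mef2d, 61.4 for Nkx2-5, 50.6 for Mef2a, 47.0 for Tbx20, 44.1 for Gata4, 31.8 for Hand2, 27.7 for Gata6, 24.7 for Srf, 17.8 for Mef2c and 8.83 for Tbx5. In sham libraries it was 83.6 for Mef2d, 70.2 for Nkx2-5, 58.5 for Mef2a, 44.1 for Gata4, 38.7 for Hand2, 37.5 for Tbx20, 34.3 for Gata6, 23.97 for Srf, 17.8 for Mef2c and 13.2 for Tbx5. Tbx20 stood above Gata4 and Hand2 in the order of TAC medians and below both in the order of sham medians. Most neighbours in the sham order shared part of their range over the 12 libraries; the lowest sham value of Mef2a (49.9 RPKM) lay above the highest of Gata4 (49.0 RPKM), and the lowest of Gata6 (26.9 RPKM) above the highest of Srf (26.6 RPKM). In the TAC order the neighbours without a shared range were Mef2c, with at least 15.6 RPKM, and Tbx5, with at most 13.8 RPKM.

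**Figure D1:**
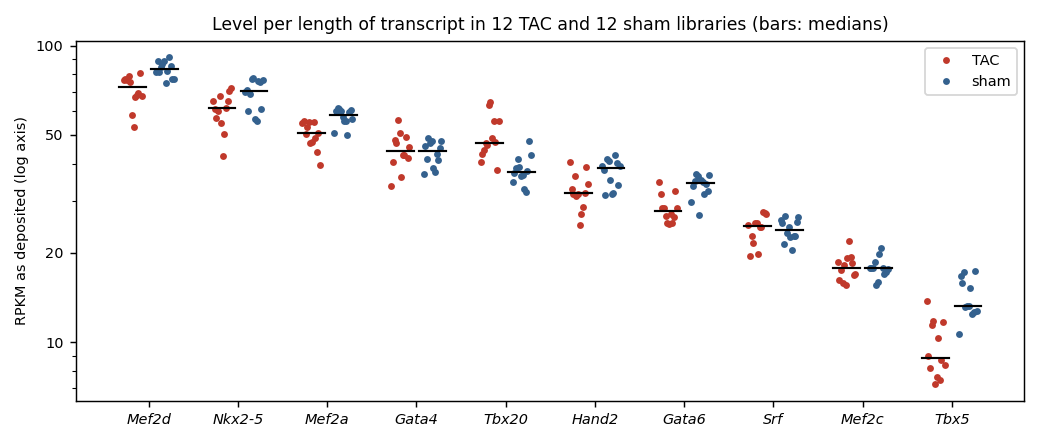
Deposited RPKM of the 10 factors on a log axis, 1 point per library for 12 TAC libraries (red, left) and 12 sham libraries (blue, right), with black bars at the medians. Mef2d was the most abundant per length and Tbx5 the least, with medians of 72.3 and 8.83 RPKM in TAC libraries and 83.6 and 13.2 RPKM in sham libraries.

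The study asks how the ventricle's RNA changes over the course of pressure overload, and most of these factors changed little. At day 2 none of the 10 passed the test, when 4.58% of all genes did; 1 had an unadjusted p under 0.05, against 20% of all genes, and DESeq2 and limma voom also called none. At day 4 Tbx20 was higher and Gata6 lower, 2 of 10 against 24.6% of all genes (14.4% higher and 10.1% lower). Tbx20 was again higher at day 7, when Tbx5, Gata6 and Mef2d were lower, 4 of 10 against 23.2% of all genes (13.1% higher and 10% lower). At day 21 Mef2a was lower, 1 of 10 against 1.09% of all genes (0.47% lower). Averaged over the 4 days, Tbx20 was higher, and Tbx5, Gata6, Mef2a, Mef2d and Hand2 were lower, 6 of 10 against 45.7% of all genes (24.4% higher and 21.4% lower). Gata4, Mef2c, Srf and Nkx2-5 passed at no day and not in the average. The share of the factors called at days 4 and 7 was thus of the order of that of all genes, and a single gene sets the share at day 21. Without the 4 libraries over 30 CPM of Myl7 the number of factors called was 0, 1, 0 and 0 at days 2, 4, 7 and 21 and 5 for the average, when the number of all genes called was 0, 3153, 892, 3 and 4634.

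Of the 10 factors, 8, 7, 7 and 6 had a negative log2 fold change at days 2, 4, 7 and 21. The shares of all genes were 50.4%, 51.3%, 49.6% and 48.2%. With 10 factors, counts of 6 or 7 are near these shares. At day 2 the negative values of Gata4, Gata6 and Nkx2-5 were smaller in size than their SE. Each of these values changed sign in some fit that left out a library. The median log2 fold change of the 10 factors was -0.06 at day 2, -0.22 at day 4, -0.16 at day 7 and -0.09 at day 21, and -0.16 for the average, where the median of all genes tested was -0.00 at day 2, -0.01 at day 4, 0.00 at day 7, 0.01 at day 21 and -0.00 for the average. The 3 TAC libraries lay wholly outside the range of the 3 sham libraries for 2 of 10 factors at day 2, 3 at day 4, 5 at day 7 and 3 at day 21. Among all genes this was so for 22.4%, 41.1%, 39.9% and 22.4% at those days.

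**Figure D2:**
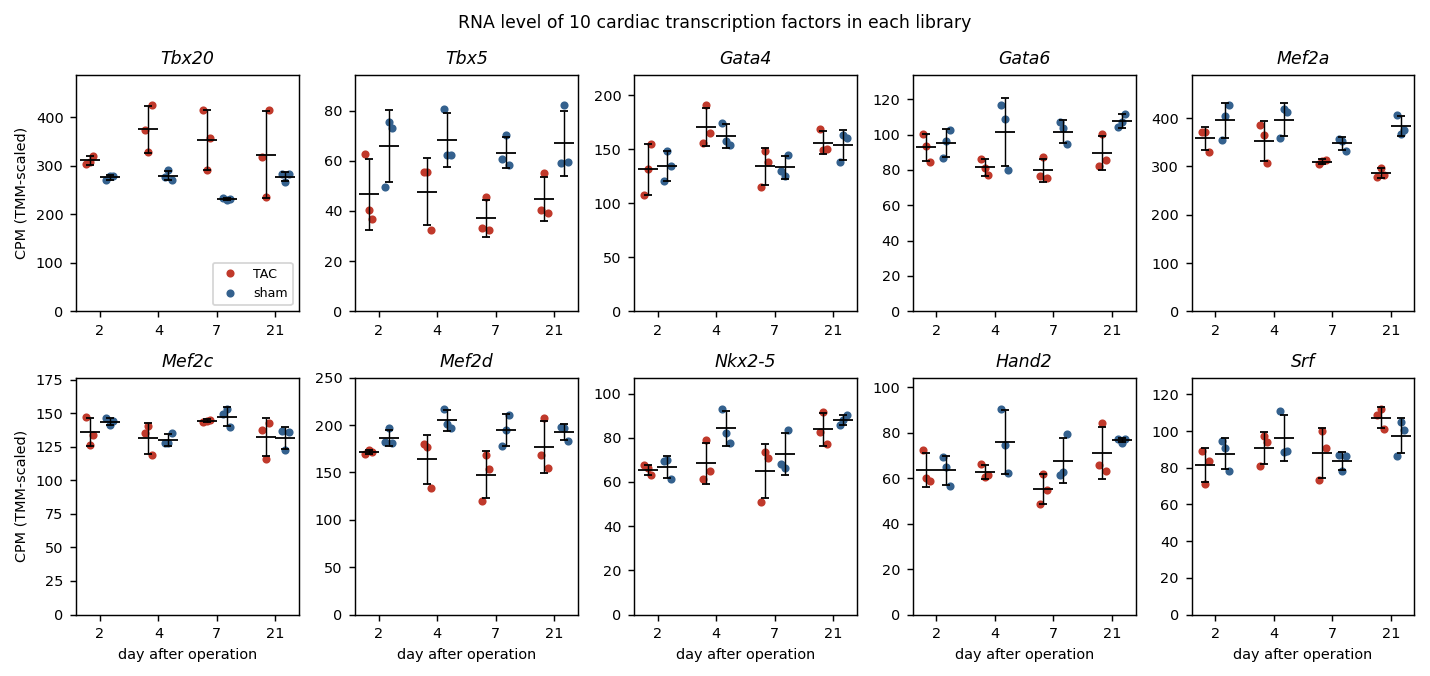
CPM of each factor by day after the operation, 1 point per library, TAC in red on the left of each pair and sham in blue on the right, with black bars for mean ± SD of 3 libraries; each axis starts at 0. The Tbx20 points of TAC lie above those of sham at days 2, 4 and 7, the Tbx5 points of TAC below those of sham at days 4, 7 and 21, and the points of Gata4 and Mef2c overlap at every day.

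The T-box pair showed the largest average changes of the 10, in opposite directions. TBX20, which adult mouse cardiomyocytes need to keep contracting and which can act as an activator or a repressor, was the only member that rose. At day 2 Tbx20 had 304, 308 and 320.1 CPM in TAC libraries, against 269.9, 278 and 279 CPM in sham libraries. At day 4 it had 373, 328 and 424 CPM in TAC libraries, against 277, 290.2 and 271 CPM in sham libraries. At day 7 the level was 414, 290.3 and 356 CPM in TAC libraries, against 233, 229 and 231 CPM in sham libraries. The groups did not overlap on any of these days, and at days 4 and 7 the TAC libraries were spread much more widely than the sham libraries. At day 21 Tbx20 had 319, 235 and 415 CPM in TAC libraries, against 282, 266 and 284 CPM in sham libraries. The TAC value of replicate 2 lay below all sham libraries of that day, so the groups overlapped. Of the 12 TAC libraries, 11 lay above the highest of the 12 sham libraries, which had 290.2 CPM.

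The log2 fold change of Tbx20 was 0.17 ± 0.14 at day 2 (edgeR, adjusted p = 0.532), 0.42 ± 0.14 at day 4 (adjusted p = 0.0337), 0.61 ± 0.14 at day 7 (adjusted p = 0.00525) and 0.22 ± 0.14 at day 21 (adjusted p = 0.436). Averaged over the days it was 0.36 ± 0.071 (95% interval 0.21 to 0.50; edgeR adjusted p = 0.000396), or 28.1% higher with TAC, and the mean of the TAC libraries was higher at 4 of 4 days. At day 21 that rested on TAC replicate 3: without it the log2 fold change was -0.00, and without TAC replicate 2 it was 0.40 (edgeR adjusted p = 0.997 and 0.0653). The call at day 7 held whichever of the 6 libraries of that day was left out. The call at day 4 was lost in 5 of 6 such fits, with adjusted p between 0.0613 and 0.184 in edgeR and log2 fold changes of 0.33 to 0.46.

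TBX5, the activator whose loss on 1 allele gives Holt-Oram syndrome in humans and which maintains atrial identity and conduction, fell. At day 2 Tbx5 had 62.7, 40.4 and 36.8 CPM in TAC libraries, against 49.5, 75.6 and 73.0 CPM in sham libraries. At day 4 it had 55.4, 55.5 and 32.3 CPM in TAC libraries, against 80.8, 62.2 and 62.2 CPM in sham libraries. The first of these days had overlapping groups, because TAC replicate 1 was above sham replicate 1; the second did not. At day 7 Tbx5 had 33.3, 45.6 and 32.3 CPM in TAC libraries, against 60.9, 70.3 and 58.5 CPM in sham libraries. At day 21 it had 40.4, 55.0 and 39.3 CPM in TAC libraries, against 59.3, 82.1 and 59.5 CPM in sham libraries. Every TAC library was below every sham library on both of these days, and 8 of the 12 TAC libraries were below the lowest of all 12 sham libraries.

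The log2 fold change of Tbx5 was -0.51 ± 0.23 at day 2 (edgeR, adjusted p = 0.209), -0.52 ± 0.23 at day 4 (adjusted p = 0.0956), -0.77 ± 0.23 at day 7 (adjusted p = 0.0208) and -0.58 ± 0.23 at day 21 (adjusted p = 0.193). Averaged over the days it fell by 0.59 ± 0.11 (95% interval -0.83 to -0.36; edgeR adjusted p = 0.000282), that is by 33.8%. Day 7 was lost when sham replicate 2 or TAC replicate 1 or 3 was left out (edgeR adjusted p 0.0714 to 0.0962), and day 2 was gained without TAC replicate 1, the library with high Esr1 (-0.77, edgeR adjusted p = 0.0306). Tbx5 is abundant in atria. Of 6 tested atrial markers 0 were higher and 1 lower on average, against 24.4% and 21.4% of all genes. The lower marker was Stard10 (-0.80 ± 0.12, edgeR adjusted p = 2.89e-05), while Myl7 had 0.41 ± 1.40 (edgeR adjusted p = 0.836). Of the 4 libraries over 30 CPM of Myl7, 3 were sham libraries, with 75.6, 73.0 and 82.1 CPM of Tbx5, while the TAC one had 33.3 CPM. Sham day 4 replicate 1 had 80.8 CPM of Tbx5 with 0.088 CPM of Myl7. Without these 4 libraries the log2 fold change of Tbx5 was -0.09 at day 2, where sham replicate 1 is then the single sham library, -0.52 at day 4, -0.70 at day 7 and -0.41 at day 21 (edgeR adjusted p of 0.942, 0.0943, 0.101 and 0.449), so that no day passed. The average was then -0.43 (edgeR adjusted p = 0.0151), and the part of atrial tissue in these values was not tested.

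Set against each other within a library, where scaling cancels, the ratio of Tbx20 to Tbx5 reads was 4.86 to 8.71 in TAC libraries and 3.68 to 5.45 in sham libraries at day 2, and 5.90 to 13.1 in TAC libraries and 3.42 to 4.66 in sham libraries at day 4. Day 7 gave 6.37 to 12.4 in TAC libraries and 3.26 to 3.96 in sham libraries, and day 21 gave 4.28 to 10.5 in TAC libraries and 3.24 to 4.77 in sham libraries. The ratio was thus separated between the groups at days 4 and 7. On the log2 scale the ratio was 0.95 higher in TAC, and positive at 4 of 4 days (exact permutation test of the labels within days, two-sided, p = 7.5e-05, adjusted p = 0.000375 over 5 pairs of related factors; the smallest p possible was 1.25e-05). Within a single day 3 against 3 libraries cannot give a p under 0.1.

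**Figure D3:**
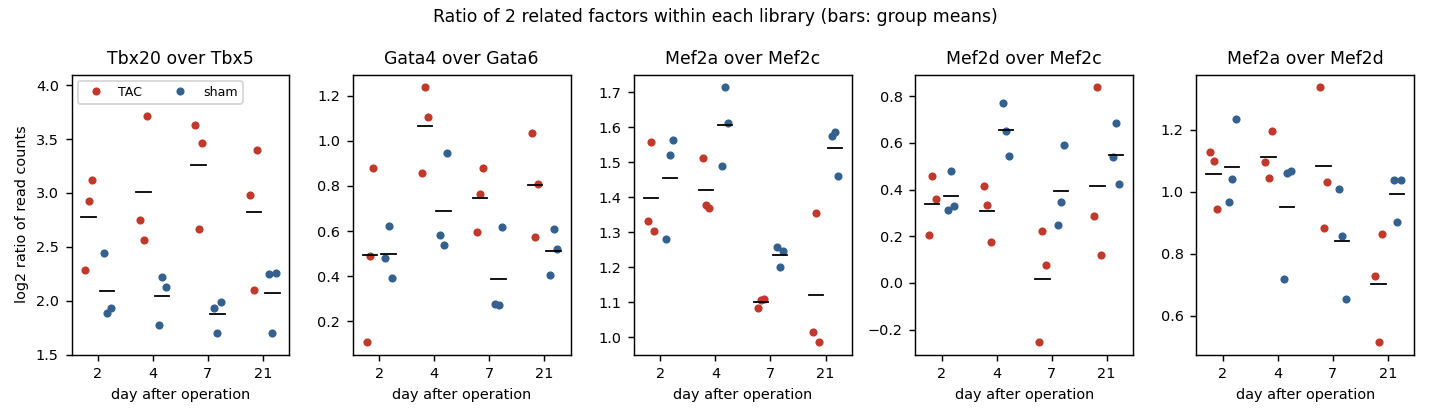
Log2 ratio of the read counts of 2 related factors within each library, by day after the operation, TAC in red on the left and sham in blue on the right of each pair, with black bars at group means; the vertical axes differ between panels and do not start at 0. The Tbx20 to Tbx5 ratio was 0.95 higher in TAC, averaged over days, while the Mef2a to Mef2d ratio differed by 0.02.

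The GATA pair parted on average as well, though by less. GATA4 and GATA6 bind the same core sequence and are both used by the mouse heart in its growth under load. At day 4 Gata6 had 86.4, 80.9 and 77.0 CPM in TAC libraries, against 116, 109 and 79.9 CPM in sham libraries. At day 7 it had 76.5, 87.5 and 75.3 CPM in TAC libraries, against 107, 104 and 94.7 CPM in sham libraries. Sham replicate 3 at day 4 lay within the TAC range, so the groups overlapped there, and at day 7 they did not. At day 2 Gata6 had 100.1, 93.7 and 84.4 CPM in TAC libraries, against 86.7, 96.5 and 103 CPM in sham libraries. At day 21 it had 82.1, 100.4 and 85.9 CPM in TAC libraries, against 104, 107 and 112 CPM in sham libraries. The groups were mixed at day 2 and separated by a small gap at day 21.

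The log2 fold change of Gata6 was -0.04 ± 0.11 at day 2 (edgeR, adjusted p = 0.885), -0.32 ± 0.11 at day 4 (adjusted p = 0.0449), -0.35 ± 0.11 at day 7 (adjusted p = 0.0323) and -0.27 ± 0.11 at day 21 (adjusted p = 0.231). Averaged over the days it was -0.24 ± 0.057 (95% interval -0.36 to -0.13; edgeR adjusted p = 0.00163), a fall by 15.6%. The call at day 4 was lost in 5 of 6 fits that left out a library and the call at day 7 in 4 of 6, with edgeR adjusted p up to 0.210 and 0.125; without sham replicate 1 the day 4 value was -0.22. Reads of Gata6 could not be told apart from those of its antisense transcript 1010001N08Rik if the counting ignored strand, which the sources used here do not state; that transcript had at most 119 reads in a library.

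Gata4 did not move beyond the spread of its libraries. It had 108, 131 and 155 CPM in TAC libraries, against 121, 148 and 135 CPM in sham libraries at day 2, and 156, 191 and 166 CPM in TAC libraries, against 175, 158 and 154 CPM in sham libraries at day 4. It had 116, 149 and 139 CPM in TAC libraries, against 129.7, 125 and 145 CPM in sham libraries at day 7, and 168, 149 and 151 CPM in TAC libraries, against 138, 163 and 160.4 CPM in sham libraries at day 21. The groups overlapped at every day. Its average log2 fold change was 0.02 ± 0.061 (95% interval -0.11 to 0.14; edgeR adjusted p = 0.832), and its values by day lay between -0.03 and 0.08. The ratio of Gata4 to Gata6 reads was 0.26 higher in TAC on the log2 scale (exact permutation test within days, two-sided, p = 0.0109, adjusted p = 0.0148), and positive at 3 of 4 days. At day 4 the linear ratio was 1.81 to 2.36 in TAC libraries and 1.45 to 1.93 in sham libraries. At day 2 it was 1.08 to 1.84 in TAC libraries and 1.31 to 1.54 in sham libraries. Day 7 gave 1.51 to 1.84 in TAC libraries and 1.21 to 1.53 in sham libraries. Day 21 gave 1.49 to 2.05 in TAC libraries and 1.33 to 1.53 in sham libraries. In this ratio the groups thus overlapped at every day. Without the 4 libraries over 30 CPM of Myl7 the difference was 0.29 and the adjusted p of the exact permutation test 0.0769.

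Of the 3 MEF2 genes, which bind A/T-rich elements of muscle genes, Mef2a and Mef2d were lower and Mef2c passed at no day. MEF2A and MEF2D are the forms that predominate in the adult mouse heart, and MEF2D mediates stress-dependent growth and fibrosis in that species. Mef2a had 371, 372 and 331 CPM in TAC libraries, against 355, 405 and 426 CPM in sham libraries at day 2, and 385, 366 and 307 CPM in TAC libraries, against 358, 419 and 413 CPM in sham libraries at day 4. Its groups overlapped on both days. At day 7 Mef2a had 304, 311 and 314 CPM in TAC libraries, against 357, 353 and 332 CPM in sham libraries. At day 21 it had 279, 297 and 282 CPM in TAC libraries, against 407, 367 and 375 CPM in sham libraries. The groups were apart on the later days, by the wider gap at day 21, and the highest TAC value of day 21 was below the lowest of all 12 sham libraries, 332 CPM.

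The log2 fold change of Mef2a was -0.14 ± 0.091 at day 2 (edgeR, adjusted p = 0.396), -0.17 ± 0.091 at day 4 (adjusted p = 0.174), -0.17 ± 0.091 at day 7 (adjusted p = 0.186) and -0.42 ± 0.091 at day 21 (adjusted p = 0.0316). Averaged over the days it was -0.23 ± 0.045 (95% interval -0.32 to -0.13; edgeR adjusted p = 0.000453), a fall by 14.5%. The day 21 call was lost in 5 of 6 fits that left out a library, with edgeR adjusted p of 0.0625 to 0.136 and log2 fold changes between -0.45 and -0.37. Mef2a overlaps Lysmd4 on the opposite strand, which had at most 247 reads in a library. On its own strand it overlaps Gm44667 and Gm44668, which are not among the genes counted. Mef2d overlaps the antisense gene 1700113A16Rik, which had at most 11 reads in a library.

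Mef2d had 169.7, 173 and 172 CPM in TAC libraries, against 182, 197 and 181 CPM in sham libraries at day 2. At day 4 it had 180.1, 177 and 134 CPM in TAC libraries, against 217, 201 and 197 CPM in sham libraries. At day 7 there were 120.3, 169 and 153 CPM in TAC libraries, against 177, 195 and 211 CPM in sham libraries. The groups were apart on these days, by a narrow margin at days 2 and 7, and TAC day 7 replicate 1 was the lowest of all 24 libraries. At day 21 it had 168, 208 and 155 CPM in TAC libraries, against 198, 197 and 183 CPM in sham libraries, and TAC replicate 2 was above all sham libraries of the day. The log2 fold change was -0.12 ± 0.12 at day 2 (edgeR, adjusted p = 0.630), -0.32 ± 0.12 at day 4 (adjusted p = 0.0571), -0.40 ± 0.12 at day 7 (adjusted p = 0.0249) and -0.12 ± 0.12 at day 21 (adjusted p = 0.643). Averaged over the days it was -0.24 ± 0.061 (95% interval -0.37 to -0.11; edgeR adjusted p = 0.00311), a fall by 15.4%, and 10 of 12 TAC libraries were below the lowest sham library. Without TAC replicate 1 the day 7 value was -0.27 (edgeR adjusted p = 0.165), and the call was also lost without sham replicate 2 or 3.

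Mef2c, the MEF2 gene whose loss stops heart development in the mouse embryo, had 116 to 147 CPM in TAC libraries (median 139) and 122 to 153 CPM in sham libraries (median 138). Its values by day lay between -0.08 and 0.01, and its average was -0.02 ± 0.041 (95% interval -0.11 to 0.06; edgeR adjusted p = 0.668), the smallest SE of the 10. Relative to Mef2c within a library, Mef2a was lower in TAC by a log2 difference of -0.20 (exact permutation test within days, two-sided, p = 0.00139, adjusted p = 0.00347) and Mef2d by -0.22 (p = 0.0118, adjusted p = 0.0148), each negative at 4 of 4 days. At day 21 there were 1.98 to 2.56 Mef2a reads per Mef2c read in TAC libraries and 2.75 to 3.002 in sham libraries. The ratio of Mef2a to Mef2d differed by 0.02 (exact permutation p = 0.759). Without the 4 libraries over 30 CPM of Myl7 the difference was -0.15 for Mef2a over Mef2c and -0.16 for Mef2d over Mef2c, with adjusted p of 0.0990 and 0.112 in the exact permutation test.

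Hand2 was lower on average by a small amount, and Nkx2-5 did not pass the test. NKX2-5 is the homeobox partner of GATA4 and TBX5, and HAND2 a factor needed for the right ventricle of the mouse embryo. At day 4 Nkx2-5 had 61.5, 79.0 and 64.9 CPM in TAC libraries, against 93.2, 82.0 and 77.6 CPM in sham libraries, and TAC replicate 2 lay within the sham range. At the other days its groups overlapped too, with 51.2 to 91.9 CPM in TAC libraries and 61.2 to 93.2 CPM in sham libraries over all 4 days. Its log2 fold change was -0.03 ± 0.12 at day 2 (edgeR, adjusted p = 0.924), -0.30 ± 0.12 at day 4 (adjusted p = 0.0790), -0.16 ± 0.12 at day 7 (adjusted p = 0.357) and -0.07 ± 0.12 at day 21 (adjusted p = 0.807), and -0.14 ± 0.062 on average (95% interval -0.27 to -0.01; edgeR adjusted p = 0.0677).

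Hand2 had 48.6, 61.8 and 54.9 CPM in TAC libraries, against 61.4, 62.5 and 79.2 CPM in sham libraries at day 7, where TAC replicate 2 lay just above sham replicate 1. Its log2 fold change was 0.00 ± 0.14 at day 2 (edgeR, adjusted p = 0.998), -0.27 ± 0.14 at day 4 (adjusted p = 0.145), -0.30 ± 0.14 at day 7 (adjusted p = 0.115) and -0.11 ± 0.14 at day 21 (adjusted p = 0.705). Averaged over the days it was -0.17 ± 0.068 (95% interval -0.31 to -0.03; edgeR adjusted p = 0.0445). That call was lost in 16 of the 24 fits that left out a library, with edgeR adjusted p of up to 0.111. Hand2 and Srf also overlap a gene annotated on the opposite strand, Hand2os1 and Gm26904, neither of which is among the 24015 genes counted.

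**Figure D4:**
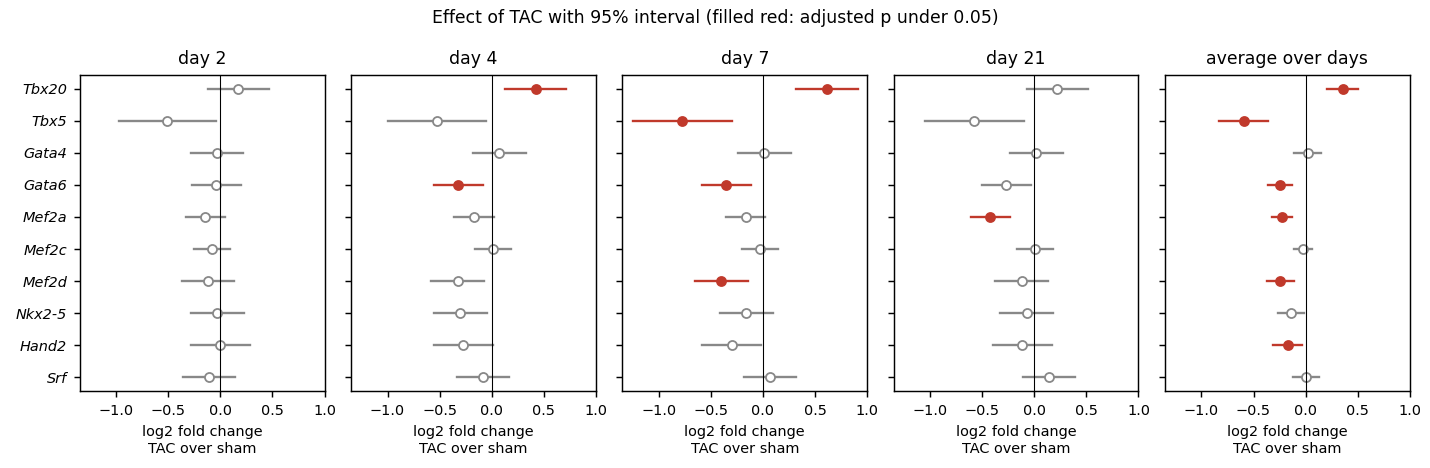
Log2 fold change of TAC over sham for each factor at each day and averaged over the 4 days, with 95% intervals from edgeR; filled red points have an adjusted p under 0.05. Tbx20 stands to the right of 0 in every panel and Tbx5 to the left, while Gata4, Mef2c and Srf lie near 0 in the average, at 0.02, -0.02 and 0.00.

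Srf, which encodes the factor that binds CArG boxes and drives actin and immediate early genes, passed at no day, while many genes known as its targets rose. Srf had 89.2, 71.2 and 83.9 CPM in TAC libraries, against 94.5, 90.6 and 78.2 CPM in sham libraries at day 2, and 80.9, 97.2 and 94.0 CPM in TAC libraries, against 111, 88.5 and 89.2 CPM in sham libraries at day 4. At day 7 the values were 73.4, 100.2 and 90.8 CPM in TAC libraries, against 87.2, 78.3 and 86.2 CPM in sham libraries, and at day 21 it had 109, 112 and 101 CPM in TAC libraries, against 86.7, 105 and 101 CPM in sham libraries. The groups overlapped at every day. The log2 fold change was -0.11 ± 0.12 at day 2, -0.08 ± 0.12 at day 4, 0.07 ± 0.12 at day 7 and 0.14 ± 0.12 at day 21 (edgeR adjusted p of 0.658, 0.642, 0.705 and 0.575), and 0.00 ± 0.060 on average (95% interval -0.12 to 0.13).

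Srf and Mef2a are shown here with the 280 bases around their RefSeq start (250 before it and 30 from it on, build GRCm38.p6, both on the minus strand and printed 5′ to 3′ in the sense of the gene), since both hold the element that their own family binds. Promoters of 7 of the 10 factors were searched, with a chromosome left out beforehand. Of these only the promoters of Srf and Mef2a held a CArG or MEF2 box. Capitals mark the boxes: for Srf, CArG boxes that start 82 and 62 bases before the start, and for Mef2a, a MEF2 box that starts 2 bases before it. The windows are chr17:46556133-46556412 for Srf and chr7:67372829-67373108 for Mef2a.
Srf: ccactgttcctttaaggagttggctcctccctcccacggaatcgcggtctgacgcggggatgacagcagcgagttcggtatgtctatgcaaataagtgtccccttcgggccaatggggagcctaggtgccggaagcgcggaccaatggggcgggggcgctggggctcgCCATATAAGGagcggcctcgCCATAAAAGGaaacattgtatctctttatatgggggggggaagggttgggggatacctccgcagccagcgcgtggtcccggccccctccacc
Mef2a: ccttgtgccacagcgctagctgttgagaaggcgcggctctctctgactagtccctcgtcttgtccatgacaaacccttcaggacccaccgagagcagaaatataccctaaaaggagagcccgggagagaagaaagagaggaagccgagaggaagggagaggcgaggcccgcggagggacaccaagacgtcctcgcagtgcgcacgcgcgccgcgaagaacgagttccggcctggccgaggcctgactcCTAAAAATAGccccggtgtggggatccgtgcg
A CArG box was taken as CC, 6 letters A or T, then GG, and a MEF2 box as C or T, TA, 4 letters A or T, TA, then A or G, both strands being read. Among 32851 mouse promoters of the same length 1.56% held a CArG box and 3.07% a MEF2 box. A match is a string of letters in a window and was not tested for binding.

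Beside the level of Srf itself, 17 of 23 genes listed as SRF targets (a list that includes Srf) were higher in TAC averaged over days, against 24.4% of all genes, and none was lower. At days 2, 4, 7 and 21 it was 9, 16, 9 and 1 higher, against 3.73%, 14.4%, 13.1% and 0.622% of all genes. The median log2 fold change of the list was 0.57 on average, where that of all genes tested was -0.00. The gene lists here and below were chosen with earlier results of these data known, so these shares are not an independent test. Acta1, skeletal alpha-actin, rose most of the list by 2.73 ± 0.22 (edgeR adjusted p = 1.03e-07), and Ctgf, a matrix-associated growth factor gene, by 1.94 ± 0.24 (adjusted p = 3.96e-06). Tagln2, transgelin 2, rose by 0.95 ± 0.12 (adjusted p = 4.36e-06) and Zyx, the focal adhesion protein zyxin, by 0.57 ± 0.074 (adjusted p = 6.85e-06). Several of these genes, such as Actb, Flna and Cnn1, are also used by fibroblasts and smooth muscle, and 8 of 10 fibroblast markers rose in the same comparison; the part of these cells in the list was not tested. The 6 listed genes that did not pass were Fhl2, Tpm1, Fos, Egr1, Ier2 and Srf. Myocd, the muscle-restricted SRF cofactor, had -0.11 ± 0.056 on average (edgeR adjusted p = 0.125).

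Among 22 genes known as targets of GATA4, NKX2-5, TBX5 or MEF2, 6 were higher and 10 lower on average, against 24.4% and 21.4% of all genes. The share of higher genes was thus near that of all genes, and the share of lower genes was above it. At days 2, 4, 7 and 21 the counts were 4, 5, 4 and 3 higher, against 3.73%, 14.4%, 13.1% and 0.622% of all genes. At the same days 0, 6, 6 and 0 were lower, against 10.1% of all genes at day 4, 10% at day 7 and 0.47% at day 21. Nppa and Nppb, the natriuretic peptide genes, rose by 3.26 ± 0.25 (edgeR adjusted p = 1.03e-07) and 1.81 ± 0.18 (adjusted p = 4.89e-07). Myh7, the slow myosin heavy chain, rose by 2.996 ± 0.35 (adjusted p = 2.62e-06), and Ankrd1, a sarcomeric ankyrin-repeat protein gene, by 1.59 ± 0.16 (adjusted p = 7.44e-07). Myh6, whose product is the fast myosin of the adult ventricle, had -0.39 ± 0.10 (edgeR adjusted p = 0.00370). The other 2 higher genes were Slc8a1, the sodium-calcium exchanger, with 0.18 ± 0.061 (edgeR adjusted p = 0.0199), and Xirp1, an actin-binding protein gene of intercalated discs, with 0.16 ± 0.061 (adjusted p = 0.0378). Also lower on average were Atp2a2, Ryr2, Pln, Tnni3, Tnnt2, Myl2, Myl3, Ckm and Ppargc1a. Actc1, Gja1, Gja5, Tnnc1 and Casq2 were among those that did not pass, and the median of the list was 0.00. Ryr2, Tnni3, Tnnt2, Myl2 and Myl3 are also cardiomyocyte markers, so they are counted again among the lower markers below. The part of tissue composition in this list was not tested. The peptide genes thus showed effects several times those of the factors known to bind them: no factor moved by more than 0.77 on the log2 scale at any day.

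Of 36 listed partners and cofactors 32 were tested, and on average 5 were higher and 12 lower, against 24.4% and 21.4% of all genes, with a median of -0.10. At day 4 it was 1 higher and 6 lower, against 14.4% and 10.1% of all genes. At day 7 it was 4 and 4, against 13.1% and 10%, which is about the share of all genes, and none passed at day 2 or day 21. Prox1, a homeobox gene of cardiac and lymphatic cells, fell by 0.49 ± 0.077 (edgeR adjusted p = 4.66e-05), and Hopx, a homeodomain protein that binds SRF rather than DNA, fell by 0.61 ± 0.12 (adjusted p = 0.000246). Hdac4, a class II deacetylase that represses MEF2, fell by 0.36 ± 0.068 (adjusted p = 0.000258), and its relatives Hdac5 and Hdac9 were lower too. Prdm16, a zinc-finger regulator of ventricular muscle, fell by 0.29 ± 0.052 (adjusted p = 0.000158), and Zfpm2, the FOG2 partner of GATA4, by 0.19 ± 0.046 (adjusted p = 0.00179). The members that rose were Tbx18, Mkl1, Tead2, Tead4 and Nfatc1, of which Mkl1 encodes an actin-regulated SRF cofactor and Tead2 and Tead4 encode DNA-binding partners of YAP.

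The effect of TAC was not shown to differ between days for any of the 10. In the edgeR test of change over the 4 days 0 of 10 passed and 0 had an unadjusted p under 0.05, when 0.369% of all genes passed and 13% had such an unadjusted p, and DESeq2 and limma voom called 0 as well. Mef2a, called at day 21 and not before, had an unadjusted p of 0.134 in that test and Tbx20 of 0.138. Among sham libraries over the 4 days 0 of 10 passed, against 0.68% of all genes, and 1 had an unadjusted p under 0.05, against 9.42% of all genes. This was Nkx2-5, with the smallest unadjusted p (0.0142, edgeR adjusted p = 0.347) and means of 66.9, 84.2, 72.7 and 88.0 CPM at days 2, 4, 7 and 21 (SD 4.93, 8.06, 9.33 and 2.42, n = 3 each). DESeq2 and limma voom called 0 of 10 among sham libraries too.

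Marker genes of several cell types changed with TAC, and in bulk RNA fewer cells of a type and less RNA per cell cannot be told apart. The summed level of 10 fibroblast markers was 1383 to 9064 CPM in TAC libraries (median 3708) and 1369 to 1911 CPM in sham libraries (median 1633). On average 8 of 10 markers were higher and none lower, with log2 fold changes of 3.11 for Postn and 2.15 for Col1a1. Dcn and Pdgfra did not pass, with 0.10 and 0.19 (edgeR adjusted p = 0.535 and 0.0504). Of 10 cardiomyocyte markers 6 were lower and none higher on average, and their summed level had a median of 127034 CPM in TAC libraries and 139664 CPM in sham libraries. All 9 tested macrophage markers were higher on average. Of 8 endothelial markers 1 was higher and 3 were lower, and of 8 smooth muscle and pericyte markers 3 were higher and 3 lower. Set beside these counts, 24.4% of all genes were higher and 21.4% lower on average, and 45.7% passed in either direction.

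These sums moved with some of the factors in part of the libraries. At day 7 the fibroblast sum was 9064, 1971 and 4308 CPM in TAC replicates 1, 2 and 3, where Tbx20 had 414, 290.3 and 356 CPM. At day 21 the sum was 3126, 1383 and 4450 CPM in TAC replicates 1, 2 and 3, where Tbx20 had 319, 235 and 415 CPM. At day 4 the sum was 8296, 4290 and 8669 CPM, where Tbx20 had 373, 328 and 424 CPM. The order of the 3 TAC libraries was the same for both quantities on these 3 days, and TAC day 21 replicate 2 had the lowest fibroblast sum of the 12 TAC libraries and the lowest Tbx20. At day 2 the sums were 1719, 3110 and 2851 CPM, where Tbx20 had 304, 308 and 320.1 CPM. The order of replicates 2 and 3 thus differed between the quantities, and all 3 TAC libraries were above sham in Tbx20. For Mef2d, TAC day 7 replicate 1 with 120.3 CPM also had the lowest cardiomyocyte sum of all libraries, 97033 CPM. TAC day 4 replicate 3 with 134 CPM had the second lowest, 106004 CPM. The highest such sum of all libraries, 146036 CPM, was that of TAC day 2 replicate 1. Its Mef2d of 169.7 CPM lay below the lowest sham library, 177 CPM. TAC day 7 replicate 2, with a sum of 138556 CPM, had 169 CPM of Mef2d. The part of tissue composition in these results was not tested.

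**Figure D5:**
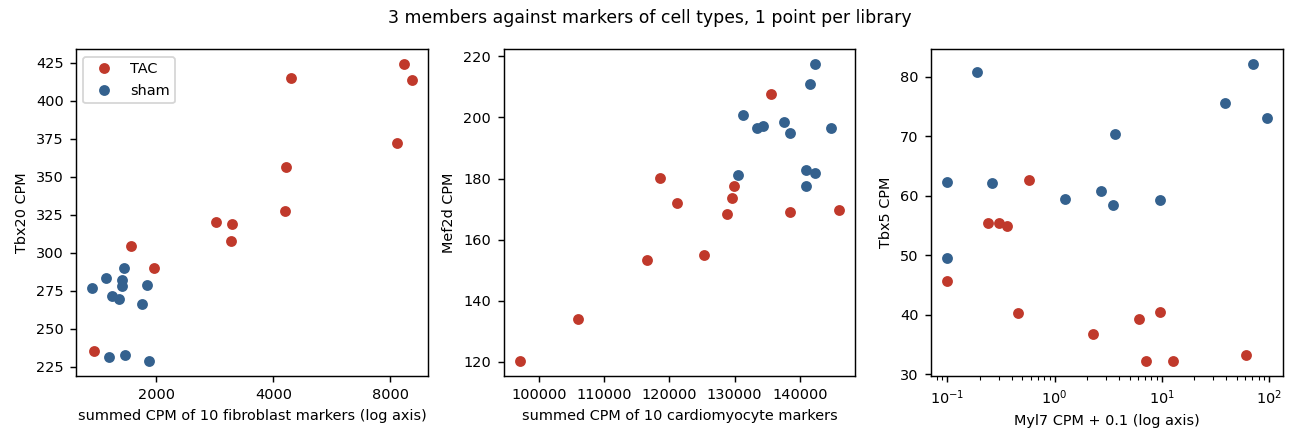
Each point is 1 library, TAC in red and sham in blue. Left, Tbx20 CPM against the summed CPM of 10 fibroblast markers on a log axis; middle, Mef2d CPM against the summed CPM of 10 cardiomyocyte markers; right, Tbx5 CPM against Myl7 CPM, with 0.1 added, on a log axis. The TAC library with the highest fibroblast sum (9064 CPM) had 414 CPM of Tbx20 and the one with the lowest (1383 CPM) had 235 CPM; the axes do not start at 0.

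Genes whose levels followed a factor most closely over the 24 libraries were found for each factor called at any day; libraries of both operations enter, so that any gene with a like response to TAC is favoured. For Tbx20 they were Dclk1, Picalm and Tmem45a (Pearson r of log2 CPM 0.93, 0.92 and 0.92), and for Tbx5 they were 1700040L02Rik, Klhdc1 and Lgals4 (r of 0.93, 0.92 and 0.90). For Mef2d they were Hadha and Ech1, enzymes of fatty acid oxidation, and Sod1, a superoxide dismutase (r of 0.94, 0.91 and 0.93). For Mef2a they were Epb4.1l3, Ghr, the growth hormone receptor, and Rnf150 (r of 0.87, 0.87 and 0.85). For Gata6 they were H2-Ke6, Rbm20, a cardiac splicing regulator, and Ccrl2 (r of 0.88, 0.86 and 0.85).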

How the data were processed

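RNA of the left ventricle was sequenced in 24 libraries. Per the labels' protocols, tissue was frozen in liquid nitrogen and total RNA was converted to libraries by a NuGEN Ovation kit and read on a NextSeq500. Per the submitters' processing notes, TopHat and DESeq were used, versions not given; the notes name a human build, which cannot have given mouse symbols, so for the mouse build, the annotation, the counting tool and the use of strand nothing is stated (not given in the sources used here).

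Raw read counts per gene symbol (24015 genes) were deposited by the authors, and RPKM made by the authors (23951 genes) in a second table. For each factor the ratio of CPM, here without TMM scaling, to RPKM was taken in every library. Its coefficient of variation (SD over mean) was 3.43% (Tbx5) to 12.3% (Nkx2-5), and the cause of this was not tested. Comparisons rest on the counts, levels between genes on the RPKM.

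In R 4.3.3 with edgeR 4.0.16, filterByExpr on the groups kept 13816 genes with 99.96% of reads. Libraries were scaled by TMM (factors 0.951 to 1.14), and a glmQLFit model of 8 group means, tested by glmQLFTest, left 16 residual degrees of freedom; the common biological coefficient of variation was 0.146. Tests were two-sided. The SE is the fold change's size over the square root of F. Depth was 10.7 to 17.6 M reads; replicates differed by a chi-square per degree of freedom of 3.65 to 62.3, so spread between libraries, not counting noise, limits the precision.

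Ratios of related factors were compared by an exact permutation of labels within days (160000 arrangements) with Python 3.11.15 and numpy 2.4.6, adjusted over 5 pairs. Both tests were tried on simulated data. Boxes were searched in RefSeq promoters (GRCm38.p6), and overlapping genes in an annotation of that assembly. The factors, gene lists, tests and alternatives were chosen with earlier results of these data known. Named genes are all factors, of each list the 4 with the smallest p on average plus Nppa, Nppb, Myh6, Myh7, Acta1, Myocd and Zfpm2, and for each factor called at a day the 3 genes with the highest r; other list members were named with their values seen. Alternatives were RLE and upper quartile scaling, no filter or a mean of at least 1 CPM, limma 3.58.1 voom, DESeq2 1.42.0, log2(RPKM + 1), also unfiltered, and log2(RPKM + 0.1), a replicate block, the 4 libraries over 30 CPM of Myl7 left out or Myl7 as covariate, the 6 libraries of a day alone, and each library left out; those of the ratios were chosen after seeing the data.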

Additional observations from a re-analysis of the deposited data

How the results depend on the processing

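None of the 13 called results, each a factor at a day or on average, changed sign under any alternative; factors called elsewhere did so at days without a call, such as Gata6 at day 2 (-0.04, up to 0.10) and Tbx20 at day 21 (0.22, down to -0.00 without TAC replicate 3). Of 176 alternative values of these results, not counting those that left out 1 library, 150 stayed past the threshold and 26 did not, and 3 results not called became so in 9 values (Mef2d at day 4, Hand2 at day 7 and the average of Nkx2-5). With the fits that left out a library counted too, 17 results not called changed sign, in 59 values. The averages of Tbx20, Tbx5, Gata6, Mef2a and Mef2d were called under all 13 alternatives and in all 24 fits that left out a library; that of Hand2 was lost with upper quartile scaling (edgeR adjusted p = 0.0581), with no filter (0.0584) and without the libraries over 30 CPM of Myl7 (0.0887), and that of Nkx2-5 was gained with Myl7 as covariate (0.0253) and with RPKM (limma, 0.0317 to 0.0431). At day 4 the number of factors called was 1 in place of 2 with upper quartile scaling, no filter, limma voom, log2(RPKM + 1), log2(RPKM + 0.1), without the Myl7 libraries and with the 6 libraries of the day alone, 0 with unfiltered log2(RPKM + 1) and with Myl7 as covariate, and 3 with DESeq2. At day 7 it was 0 in place of 4 without the Myl7 libraries, where the residual degrees of freedom were fewer and Tbx20 had 0.49 (edgeR adjusted p = 0.0849), 3 with unfiltered log2(RPKM + 1) and with the 6 libraries alone, and 5 with the filtered RPKM forms. At day 21 it was 0 in place of 1 with log2(RPKM + 1), filtered or not, without the Myl7 libraries, with the replicate block within day and with the 6 libraries alone. With 1 library left out, the counts were 0 to 1 at day 2, 0 to 3 at day 4, 1 to 4 at day 7, 0 to 1 at day 21 and 5 to 7 for the average, and 0 to 0 for change over days and among sham libraries; the cause was not tested.

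With 1 library left out, the count over all genes was 12 (without sham replicate 2) to 1835 (without TAC replicate 1) at day 2, 1402 (without TAC replicate 3) to 3910 at day 4, 1270 (without TAC replicate 1) to 4132 at day 7, 7 (without sham replicate 3) to 575 (without TAC replicate 2) at day 21, 5717 to 6803 for the average, 20 to 113 for change over days and 37 to 65 among sham libraries, so that the shares of all genes set beside the factors move with single libraries. With all libraries, the count at day 2 was 633, against 292 with limma voom, 154, 252 and 80 with the RPKM forms, 1552 with Myl7 as covariate, 213 with the replicate block within day and 0 without the Myl7 libraries or with the 6 libraries alone. At day 21 it was 151, against 457 with DESeq2, 87 with limma voom, 95 and 54 with log2(RPKM + 1) filtered and not, 1153 with Myl7 as covariate, 24 with the block, 3 without the Myl7 libraries and 30 with the 6 libraries alone. At day 7 it was 3201, against 892 without the Myl7 libraries. For change over days it was 51, against 296 with DESeq2, 16 with the block within day and 0 without the Myl7 libraries, and among sham libraries 94, against 238 with DESeq2, 36 with unfiltered log2(RPKM + 1), 3 with the block within day and 23 without the Myl7 libraries.

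No pairing of TAC with sham libraries by replicate number was seen. Same-numbered libraries of a day had deviations correlated by -0.151 to 0.141, with 1 of 12 pairs above 0.1. Weak correlations of this kind cannot exclude that such libraries were handled together. With a replicate block of 3 numbers the counts of factors called were 0, 3, 4 and 1 at days 2, 4, 7 and 21 and 6 for the average, and with the block within day 0, 2, 4 and 0, and 6; within day Mef2a at day 21 had an edgeR adjusted p of 0.112, Gata6 at day 4 of 0.0580, and Mef2d at day 4 was called (0.0291).

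Of the ratios, Tbx20 over Tbx5 ranged from 0.86 to 1.04, Gata4 over Gata6 from 0.21 to 0.30, Mef2a over Mef2c from -0.23 to -0.18, Mef2d over Mef2c from -0.28 to -0.19 and Mef2a over Mef2d from -0.01 to 0.05 with 1 library left out. Without the Myl7 libraries, which leaves a single sham library at day 2, the difference was 0.29 for Gata4 over Gata6. It was -0.15 for Mef2a over Mef2c and -0.16 for Mef2d over Mef2c. The values of Tbx20 over Tbx5 and Mef2a over Mef2d in that setting are not given here. Every factor had at least 453 reads, so depth did not limit these comparisons as much as 3 libraries a group did.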
